A study of Mus musculus with 8 samples.

Results

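Activated CD8+ T cells lacking the co-repressor TRIM28 were compared with floxed control cells across all genes by polyA RNA sequencing. The comparison uses 4 of the 8 libraries of the study, chosen by their genotype labels and their shared table: 2 control libraries (Trim28fl/fl, labelled WT) and 2 knockout libraries (Trim28-/-). CD8+ T cells, the lymphocytes that kill infected and malignant cells, came from mouse spleens and lymph nodes and both genotypes were activated in vitro. The agents and length of that activation, the Cre driver that removed the gene and the ages of the mice were not given in the sources used here. Nor do the labels say whether the 2 libraries of a genotype came from separate mice, cultures or RNA preparations, so the p-values reflect the spread of these 4 libraries alone, and that spread may be technical.

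TRIM28, also called KAP1, does not bind DNA itself. KRAB zinc finger proteins carry it to their target sequences, where it gathers the histone methyltransferase SETDB1, HP1 proteins and the NuRD deacetylase complex, and the result is closed chromatin marked by trimethylated lysine on histone H3. It is best known for silencing transposable elements and imprinted alleles in embryonic cells, and in T cells it has been tied to cytokine control and to tolerance.

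The table listed 49490 genes, of which 25343 had a value above 0 and 15415 reached a normalised read count of at least 10 in at least 2 libraries and were tested. Recovered reads numbered 13254136 and 13222831 in the control and 13398371 and 13469789 in the knockout. The 2 libraries of each genotype lay close together, with a median standard error of a log2 fold change of 0.0723. The values of the 2 genotypes did not overlap for 82.3% of tested genes. With 2 libraries each, values can also stand apart without a difference, and the share expected from this was not estimated. Cd8a, which encodes the CD8 alpha chain, had normalised counts of 4154 and 4324 in the control and 4945 and 5109 in the knockout, and Cd8b1, the beta chain gene, 4104 and 3915 against 2828 and 2922. Cd4 stayed below 10 in every library, Ms4a1, which marks B cells, and Ncr1, which marks NK cells, were listed at 0 in all 4, and the labelled cell type therefore had its defining markers.

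Trim28 was read first, as a check of the labels. Its normalised counts were 4262 and 4323 in the control libraries and 415 and 458 in the knockout libraries. Both knockout libraries were far below both controls, and reads remained in each of them. Reads from undeleted cells and reads from the part of the transcript outside the deletion cannot be told apart in gene totals. The log2 fold change, always given here as knockout over control on values with 1 added, was -3.30 (SE 0.053, adjusted p = 2.46e-06, limma with Benjamini-Hochberg adjustment, as for every adjusted p below). From here on, a gene's normalised counts are given for control replicates 1 and 2 and then, after "against" or "to", for knockout replicates 1 and 2, and a value alone in parentheses after a gene is its log2 fold change.

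At an adjusted p under 0.05, 61% of tested genes were called: 5065 were higher in the knockout (32.9%) and 4344 lower (28.2%). Those 2 shares are the background for the counts of every gene group below. The counts of higher genes were 3336 and 3361 without knockout replicate 1 and 2, and 2846 with DESeq2 on the recovered reads. Most differences were small. The central 90% of genes lay between a log2 fold change of -1.25 and 0.92 (median 0.031), and 10.4% of tested genes were both called and changed at least 2-fold, 621 upward and 989 downward. At the stricter filter of 50 the counts were 444 upward and 496 downward. Fits with 1 library left out cannot show whether the excess of falls is stable. They leave 1 library in a genotype, and the filter was applied again. Genes at 10 or more only in the 2 libraries of that genotype were then not tested. This limit holds for every count given here with a library left out. Many of the large changes were in weakly expressed genes: of 3670 genes with a mean count under 50, 228 rose and 568 fell by at least 2-fold, against 3 and 5 of the 422 genes with a mean of 5000 or more. By gene class, 4368 of 11259 protein-coding genes rose and 3266 fell, with 508 and 800 of them at least 2-fold. Fewer pseudogenes (14.3% of 2574) and long non-coding or unclassified genes (16.8% of 847) were called higher. Their lower shares (27.7% and 25.9%) were near the 28.2% of all tested genes. Antigen receptor segments had 41 higher and 3 lower of 143.

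The direction of small changes also followed base composition. Among protein-coding genes with a mean count of at least 200, cut into 5 classes of about 1470 genes by the GC content of their transcripts, the share called higher went from 27.1% in the class poorest in GC to 61.0% in the richest, and the share called lower from 43.7% to 17.1%. Both knockout libraries showed the trend in one direction and both control libraries in the other, as the plot of library deviations by GC content shows. With the same genes ordered by length, in the class with the longest transcripts 34.4% rose and 40.8% fell, against 47.4% and 23.5% in the shortest. The part of GC content in each result was not tested. Counts after each library was centred by GC content are given for several groups. Of the 341 genes chosen by rule for naming, 300 could be tested in all 15 alternatives and 265 of these kept their call in each. Named genes were mostly picked for large changes in these same libraries, so this share does not stand for all genes. Of all 9409 called genes, 8207 kept call and direction after GC centring and 5495 with DESeq2.

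**Figure D1:**
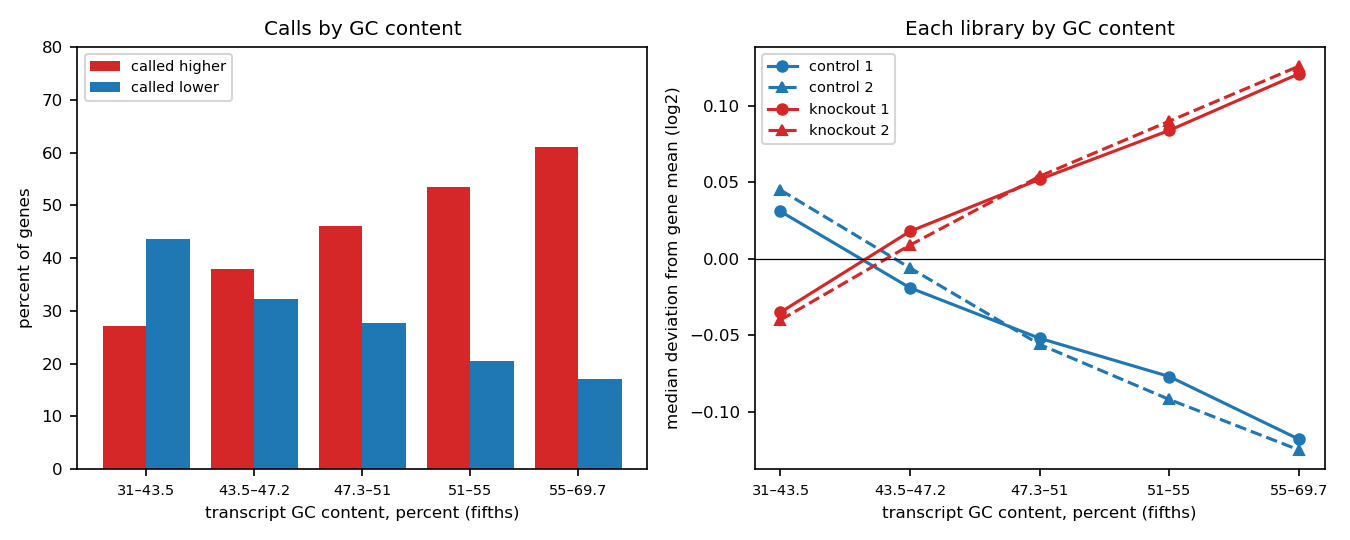
Calls and library deviations by transcript GC content in 5 classes of 1470 protein-coding genes each, with a mean count of at least 200. Left, the percent of genes called higher (red) or lower (blue) in the knockout; right, the median log2 deviation of each of the 4 libraries from the gene mean. The share called higher goes from 27.1% to 61.0% as GC content goes up, and the 2 libraries of each genotype lie together.

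The machinery that works with TRIM28 was higher in the knockout for most of its genes. Of 29 tested co-repressor partners 22 were called higher and 2 lower, Trim28 itself and Atf7ip, with a median log2 fold change of 0.35 against 0.031 over all tested genes. After GC centring 4 were lower. Setdb1, the methyltransferase gene, had counts of 945 and 906 in the control and 6349 and 6245 in the knockout, the greatest rise in the group (2.76, SE 0.034). Gm37500, an unclassified transcript on the other strand across the start of Setdb1 on chromosome 3, went from 2.03 and 2.03 to 37.4 and 39.2. Without strand information, reads of the overlap cannot be assigned to either gene. Atf7ip encodes the partner that stabilises SETDB1 in the nucleus, and it moved the opposite way, from 839.8 and 900.2 to 499 and 433 (-0.90, adjusted p = 0.000242). The HP1 genes Cbx5 (0.75), Cbx3 (0.51) and Cbx1 (0.43) all rose, as did the NuRD genes Mbd3 (0.51), Hdac1 (0.36) and Chd4 (0.11), and the HUSH complex gene Mphosph8 (0.38).

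DNA methylation genes moved in both directions. The maintenance pair Uhrf1 and Dnmt1 rose, Uhrf1 from 1654 and 1716 to 2957 and 2929 (0.80) and Dnmt1 from 2271 and 2348 to 3803 and 3649.6 (0.69), and the de novo methyltransferase gene Dnmt3b rose (0.56) while Dnmt3a fell (-0.24). All 3 genes of the TET enzymes, which oxidise methylated cytosine, fell: Tet1 by 1.93, Tet2 by 0.94 and Tet3 by 0.48 on the log2 scale. For Tet2 the counts were 2677 and 2750.2 in the control and 1496 and 1339 in the knockout, well apart. Among 29 Polycomb and MLL genes, 13 rose, led by the PRC1 genes Pcgf2 (1.33), Cbx2 (1.19) and Ring1 (0.89). The shares of this group were 44.8% higher and 27.6% lower, against 32.9% and 28.2% of all tested genes. Of the 8 that fell, 4 encode MLL-type methyltransferases, Kmt2a (-0.65), Kmt2c (-0.49), Kmt2d (-0.48) and Kmt2b (-0.14), and Jarid2, a PRC2 cofactor gene, fell most (-1.03).

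The genes with the greatest fold changes included several that were silent in one genotype. Gm9457, a processed pseudogene, and Ak7, which encodes an adenylate kinase of motile cilia, had no reads in either control library (listed at 0). They reached 199 and 189 (Gm9457) or 106 and 99 (Ak7) in the 2 knockout libraries. Set against a floor of 3 reads per library, these are at least 63.8-fold and at least 33.8-fold higher. Of all tested genes, 20 were listed at 0 in both control libraries and 40 in both knockout libraries. Dnah12, an axonemal dynein gene (105 and 90.2 in the knockout), Gm43673 (89.6 and 89.2), Gm13348 (80.7 and 78.4) and Ly6d (86.7 and 71.6) completed the 6 highest of the first set, each at least 26-fold higher. In the second set the highest were Mx2 (36.5 and 35.5 in the control), Clic5 (26.4 and 36.5), Ddx60 (26.4 and 29.4), Guca1a (30.4 and 23.3), I830127L07Rik (23.3 and 27.4) and Qrich2 (29.4 and 21.3). Mx2, of the dynamin-like antiviral GTPases, is annotated as a polymorphic pseudogene and was at least 12.2-fold lower in the knockout.

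Other large rises were seen in genes with some expression in the control. Gm42752, an unclassified transcript, had 3.04 and 4.05 in the control and 391 and 382 in the knockout (log2 fold change 6.42, SE 0.16). Gm45519 had 3.04 and 6.08 against 194 and 187. M1ap, a meiosis gene, had 11.2 and 12.2 against 269 and 290.2 (4.47), and Chst3, which encodes a chondroitin sulfotransferase, 40.6 and 48.7 against 696 and 668 (3.91). In each of these the lowest knockout value was far above the highest control value. Fam160a1, a gene of the endosomal FHF complex family, had 65.9 and 63.9 against 898 and 899.9 (3.77), and the kinase gene Yes1 44.6 and 80.1 against 849.8 and 837 (3.80). The non-coding 1110002J07Rik had 10.1 and 8.11 against 174 and 129 (3.91). Pgpep1l was uneven in the control, at 16.2 and 0, and rose to 246 and 254. Its call was lost with DESeq2, without a filter and when either knockout library was left out.

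Among the large falls, Eps8l1, whose family links receptor signals to actin, went from 118 and 83.1 to 2.95 and 0 and Inhba, the activin A subunit gene, from 841 and 890.0 to 44.3 and 42.2 (-4.29). Acvrl1, which encodes a receptor of the BMP and activin family, fell too, from 137 and 129 to 12.8 and 10.8 (-3.39). Gm44164 is an unclassified transcript with 194 and 218 in the control and 15.8 and 11.8 in the knockout (-3.82). The cilia gene Cfap54, at 205 and 191, had uneven knockout libraries (9.85 and 21.6). Gldc (-3.27), of the glycine cleavage system, and Dnm1 (-3.25), a dynamin gene, completed the set.

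**Figure D2:**
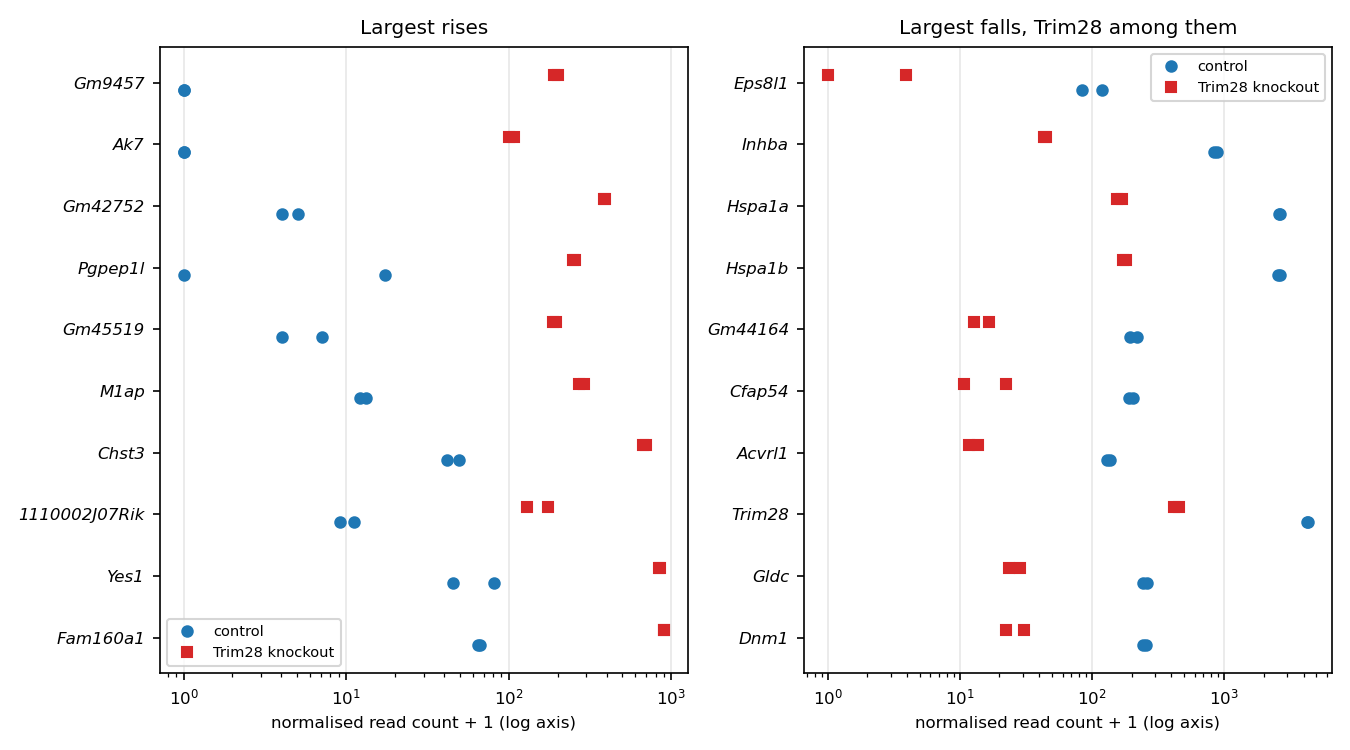
Normalised read counts plus 1, on a log axis, of the 10 genes with the greatest rise (left) and fall (right) among called genes with a mean count of at least 100 in the higher genotype. Circles are the 2 control libraries and squares the 2 knockout libraries. Only genes whose libraries did not overlap between the genotypes could be chosen, so the separation seen here follows from the choice. Gm9457 and Ak7 are listed at 0 in both control libraries.

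In absolute terms, where long transcripts weigh more, the greatest drop was in the mitochondrial mt-Co1, from 105102 and 104014 to 53408 and 53777 (-0.96). Gzmb, the granzyme B gene, Ccl3, a chemokine gene, and B2m, the shared chain of MHC class I, followed. B2m had 35653 and 33581 in the control and 18515 and 18658 in the knockout (-0.90, adjusted p = 1.52e-05). Ahnak, which encodes a giant scaffold protein, went from 18102 and 19284 to 5018 and 4584 (-1.96). The chaperone gene Hspa8 (-0.77) and the elongation factor gene Eef1a1 (-0.24) lost many reads at a modest fold. The greatest gain was in Actb, the beta-actin gene often used as a reference, from 18164 and 18105 to 40150.0 and 39866 (1.14, SE 0.02). Xcl1 (0.37), a chemokine gene whose call was lost when either knockout library was left out, Pfn1 (0.70), Eif5a (0.57), Ccr7 (0.77), Actg1 (0.62), Setdb1 and Stat5a (0.69) followed.

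Interferons act through STAT and IRF transcription factors, which switch on antiviral genes by way of a short promoter element, the interferon-stimulated response element. Of 46 tested antiviral interferon-stimulated genes 40 were called lower in the knockout and 1 higher, Ifit2, with a median log2 fold change of -1.25 against 0.031 over all tested genes. The median was the same when Mx2 and Ddx60, at 0 in the knockout, were set to their bounds. After GC centring 41 were lower. In bulk RNA, fewer cells of a type and less RNA per cell cannot be told apart, here and in every group below.

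Isg15, a ubiquitin-like modifier gene, had 136 and 122 in the control and 40.4 and 27.4 in the knockout (-1.92, adjusted p = 0.00044). Mx1, a second antiviral GTPase gene, had 51.7 and 53.7 against 6.89 and 10.8 (-2.48), and Slfn1, a T cell quiescence gene, 388 and 384 against 93.6 and 109 (-1.93). In all 3 the knockout libraries lay below the control libraries. Ifit2, of the IFIT family that binds foreign RNA, had 42.6 and 44.6 against 79.8 and 75.5 (0.82, adjusted p = 0.00141), while its relative Ifit1 fell (-1.99). The exception was not called with DESeq2.

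The genes of the signal itself moved with them in part. Stat2 (-0.89), Irf9 (-0.97), Irf7 (-1.26) and Irf1 (-0.88) fell. The IRF family as a whole was even, with 6 higher and 5 lower of 12 (median 0.044), Irf2bp1 rising most (1.32). The interferon alpha receptor genes Ifnar1 (0.41) and Ifnar2 (0.22) rose, while those for interferon gamma, Ifngr1 (-0.60) and Ifngr2 (-0.74), fell. Irf9 had 804 and 789 in the control and 413 and 402 in the knockout. For Irf7, which amplifies the interferon response, the values were 219 and 238 against 97.5 and 92.1, less than any control value in both knockout libraries. Nucleic acid sensors fell in 17 of 27 cases and rose in 5, or in 3 when either knockout library was left out. The RNA sensor genes Ifih1 (-2.99) and Dhx58 (-1.26) fell, as did Ifi206 (-1.93) and Ifi208 (-1.17) of the Ifi200 DNA-sensing family, whereas the DNA sensor gene Mb21d1 (1.03), which encodes cGAS, its partner Tmem173 (0.11, STING) and the RNA sensing adaptor gene Mavs (0.95) rose.

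The large GTPases that attack pathogen vacuoles were the other interferon-induced block. Of 11 guanylate-binding protein genes 9 fell and 2 rose, and of 9 immunity-related GTPase genes 8 fell and 0 rose (median -1.38). Gbp2 had 13800.3 and 14056 in the control and 2447 and 2572 in the knockout (-2.47, SE 0.033). Its neighbour Gbp2b, less than 2 kb upstream on the same strand of chromosome 3, had 186 and 193 against 2129 and 2119 (3.48, SE 0.043). The direction was thus opposite in adjacent members of one family, in both libraries of each genotype. Gbp5 also rose (1383 and 1378 to 2240.3 and 2071, 0.64), and Gbp7 between them fell (-1.05). On chromosome 5, Gbp10 (-2.22) and Gbp6 (-2.13) fell, but these near-identical copies can share reads. Tgtp1 (-2.05) and Tgtp2 (-2.03) are a similar pair. Irgm1, with 1645 and 1655 in the control and 398 and 429 in the knockout, and Iigp1, with 994 and 1012 against 216 and 206, also fell (-1.99 and -2.25).

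The promoters of these genes show what the opposed pair shares. The 250 bases before the RefSeq start (GRCm38.p6) were searched on both strands for GAAANNGAAA, the core of the interferon-stimulated response element. This was the only motif searched. It was present in 5 of 5 guanylate-binding protein promoters in the sequence table, 5 of 7 immunity-related GTPase promoters and 20 of 43 antiviral gene promoters (46.5%), against 936 of 27025 promoters in all (3.46%). Gbp2 (chr3:142620413-142620662, plus strand), Gbp2b (chr3:142594597-142594846, plus strand), Tgtp1 (chr11:48992247-48992496, minus strand) and Isg15 (chr4:156200819-156201068, minus strand) are printed 5′ to 3′ as the opposed pair and as 2 members that fell. Capitals mark the matches, which read TTTCNNTTTC where they lie on the other strand.
Gbp2: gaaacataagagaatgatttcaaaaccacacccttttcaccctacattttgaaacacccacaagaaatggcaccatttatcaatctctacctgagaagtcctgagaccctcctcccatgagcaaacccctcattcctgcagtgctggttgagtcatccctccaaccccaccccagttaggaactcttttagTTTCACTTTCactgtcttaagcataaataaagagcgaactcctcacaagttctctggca
Gbp2b: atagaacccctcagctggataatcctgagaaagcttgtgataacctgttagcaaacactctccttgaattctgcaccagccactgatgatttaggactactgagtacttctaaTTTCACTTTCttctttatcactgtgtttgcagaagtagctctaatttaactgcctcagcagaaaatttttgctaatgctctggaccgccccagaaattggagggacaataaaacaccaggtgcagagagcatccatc
Tgtp1: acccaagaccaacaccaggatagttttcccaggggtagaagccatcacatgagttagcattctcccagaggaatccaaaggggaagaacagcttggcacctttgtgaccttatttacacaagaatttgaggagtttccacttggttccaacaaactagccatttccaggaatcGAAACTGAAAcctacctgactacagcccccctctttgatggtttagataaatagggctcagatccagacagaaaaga
Isg15: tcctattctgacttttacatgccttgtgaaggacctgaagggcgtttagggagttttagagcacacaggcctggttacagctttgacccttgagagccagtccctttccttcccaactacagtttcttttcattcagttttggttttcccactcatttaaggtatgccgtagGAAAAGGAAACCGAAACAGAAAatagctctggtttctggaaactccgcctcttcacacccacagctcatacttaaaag
Gbp2 and Gbp2b hold the same 10 letters, at different distances from the start, and Isg15 holds 3 overlapping matches. Of the antiviral genes that were tested and have a promoter in the table, 16 of 16 with a match fell (median -1.44), and of 21 without one 16 fell and 1 rose (median -0.667). A match is a description of the letters, not of binding, and the difference between these 2 sets was not tested.

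**Figure D3:**
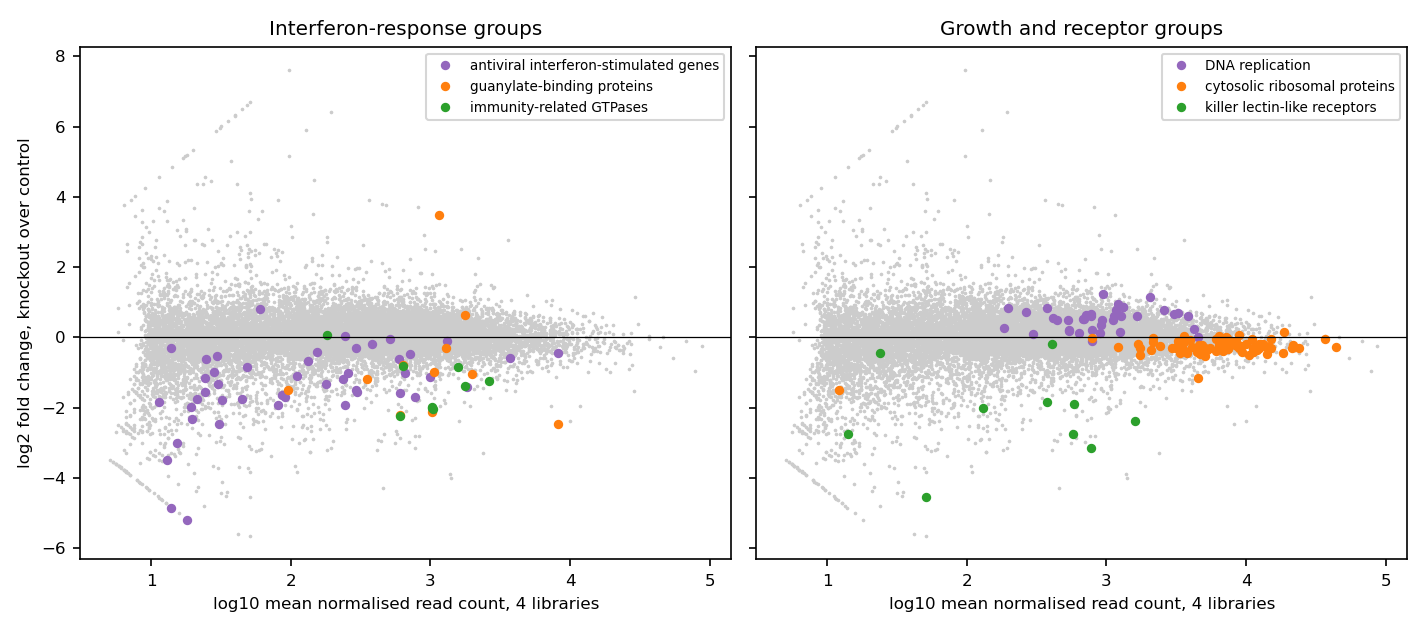
Log2 fold change of knockout over control against the log10 mean normalised count of the 4 libraries, for all 15415 tested genes (grey) and for members of 6 gene groups (coloured). Antiviral genes and both GTPase families lie mostly below 0 with Gbp2b alone far above, the DNA replication genes lie mostly above 0, and the cytosolic ribosomal protein genes form a narrow band just below it.

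Receptors that tune killing were lower with few exceptions. Of 10 tested killer lectin-like receptor genes, 9 were called lower and 0 higher (median -2.21), and the tenth, Klrg2, had a log2 fold change of -0.46. The median transcript GC content of the group was 38.6%, against 49.4% over tested genes, and after GC centring all 10 were called lower. Klrk1 encodes the activating receptor NKG2D and had 1373 and 1404 in the control and 175 and 136 in the knockout (-3.16). Klrd1, the gene of the CD94 chain, had 1031 and 984 against 142 and 157 (-2.75), and Klrc1, the gene of its inhibitory partner NKG2A, 2634 and 2736 against 512 and 509.8 (-2.39). The knockout libraries of all 3 genes held a fraction of the reads of the control libraries. Klrc3 was uneven, with 87.2 and 102 in the control and 15.8 and 0 in the knockout, and its call was lost with DESeq2, without a filter and without the variance trend.

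Of 15 granule genes 10 fell and 3 rose. Fewer fell with either control library left out, and fewer rose with either knockout library left out. Gzmk reached 10 only in the control libraries and was not tested when either of these was left out. Gzmb had 43376 and 41794 in the control and 14845 and 14848 in the knockout (-1.52), Gzmc fell (-1.88), and Gzmk was 16.2 and 15.2 and then listed at 0, at least 5.33-fold lower. Prf1, the gene of the pore-forming perforin, had 1923 and 1909 against 2061 and 2003 and did not pass (adjusted p = 0.061). Protease inhibitors and lysosomal proteases fell widely: 21 of 27 cathepsin and serpin genes were lower and 4 higher (median -0.572). Serpina3f had 1445 and 1455 against 197 and 214 (-2.82), with Serpina3h (-2.15) and Serpina3i (-2.11) of the same multi-copy cluster, and Serpinb9 (-0.55), whose product protects killers from their own granzyme B, also fell. Ctse, which encodes the aspartic protease cathepsin E, went against the rest, from 23.3 and 21.3 to 258 and 274 (3.52).

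Cytokine genes had large changes in both directions, 7 higher and 12 lower of 22 tested (median -0.686). Ifng (-2.38) and Il21 (-3.16), which encode interferon gamma and a helper cytokine, fell, and Il33, an alarmin gene, went from 64.9 and 67.9 to 1.97 and 1.96 (-4.51). The growth factor genes Fgf2 (7.1 and 4.05 to 90.6 and 105, 3.94) and Pdgfa (2.28) rose, while Pdgfb fell (-1.74). Csf1 (1.03) and Csf2 (0.78), the colony-stimulating factor genes, rose, and Il3 (-1.55) and Il10 (-1.60) fell. In the TNF family, Cd70 had 99.4 and 84.1 against 574 and 563 (2.62) and Tnfsf10 rose (2.93), whereas Fasl had 453 and 446 against 149.7 and 157 (-1.55). Counts in that family were 5 higher and 5 lower of 11.

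Chemokine ligands were mainly lower (11 of 15 lower, 2 higher, median -0.577) and their receptors mixed (7 of 13 higher, 5 lower). Cxcl10, an interferon-induced ligand gene, had 122 and 115 in the control and 24.6 and 23.5 in the knockout (-2.25), and Cxcl9 (-2.97) and Ccl20 (-2.83) also fell. The 2 that rose, Ccl1 and Xcl1, lost their calls when either knockout library was left out. Ccr8 had 8.11 and 9.12 against 114 and 116 (3.59), Ccr4 224 and 207 against 521 and 469 (1.19), and Ccr6 rose as well (2.85). Cxcr4, which holds cells in bone marrow niches, moved the other way, from 437 and 404 to 84.7 and 71.6 (-2.42). The inflammatory receptor genes Ccr2 (-1.15) and Ccr1 (-2.52) fell too. The count of lower receptors was 3 without control replicate 1, control replicate 2 or knockout replicate 1, and 2 with DESeq2.

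Receptors for cytokines fell more often than they rose, 19 against 7 of 32, and 4 rose without knockout replicate 2. Il12rb2, the signalling chain for IL-12, had 911 and 1038 in the control and 261 and 233 in the knockout (-1.97), and Il1rl1, which encodes the IL-33 receptor ST2, 192 and 237 against 47.3 and 45.1 (-2.18). Il10ra (-1.55), Il6ra (-1.52) and Il7r (-2.88) fell too, and Il21r rose (0.69). Among signal transducers, Stat4, which carries the IL-12 signal, had 4183 and 4258 against 2002 and 1978 (-1.08). Stat5b (0.72) and Stat6 (0.55) rose, and the feedback inhibitor genes Socs3 (-1.37) and Socs2 (-1.18) fell. Trafficking genes were mixed, with S1pr1, the egress receptor (-1.69), lower, and Gpr183, an oxysterol receptor gene (0.97), and Itgae, the gene of the CD103 integrin chain (0.84), higher.

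Genes of the T cell receptor relay were balanced, with 7 higher and 6 lower of 14 for the receptor complex and coreceptors and 15 and 9 of 26 for kinases and adaptors. Cd28, the main costimulator, fell from 6447 and 6585 to 3352 and 3186 (adjusted p = 1.35e-05), and Cd5, which dampens the receptor signal, rose from 5101 and 5011 to 9581 and 9613 (0.92). Of 27 brakes on that signal 10 rose and 8 fell (5 without knockout replicate 2), shares of 37% and 29.6% that are near those of all tested genes (32.9% and 28.2%). Ubash3a (0.97), Dok2 (0.83), Dok1 (0.71) and Ptpn6 (0.67) rose most, and Rnf128 (-1.83), at low counts, and Cblb (-0.32) were among those that fell. Downstream factors of activation fell more than they rose, 11 against 3 of 15 for NFAT, EGR, NR4A and TOX genes and 10 against 3 of 18 for AP-1 and BATF genes. Egr3 had 1418 and 1505 against 765 and 787 (-0.91), and Tox, tied to exhaustion, rose from 602 and 571 to 989 and 970.5 (0.74). Bach1, a haem-sensing repressor gene, fell from 1049 and 1131 to 259 and 245 (-2.11), while Batf, required for effector responses, rose from 342 and 306 to 595 and 658 (0.95).

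Of 14 inhibitory receptor genes 6 rose and 3 fell (42.9% and 21.4%, against 32.9% and 28.2% of all tested genes). Pdcd1, the PD-1 gene, rose from 2345 and 2384 to 3967 and 4115 (0.77), and Lag3 (0.40) and Btla (0.50) rose with it. Havcr2, the TIM-3 gene, moved the opposite way, from 224 and 238 to 48.3 and 49 (-2.23), and Tigit did not pass (0.06). All 16 tested costimulatory and SLAM family genes were called, 7 of them higher and 9 lower, with Slamf7 (4631 and 4685 to 2336 and 2395, -0.98), Icos (-0.92) and Cd40lg (-2.95) lower. In the BCL2 family, which sets the threshold of cell death, 12 of 18 rose and 3 fell. The survival gene Bcl2l1 had 6186 and 6203 in the control and 10786 and 10889 in the knockout (0.81), whereas the death-promoting Bcl2l11, which encodes BIM, fell from 2230.4 and 2289 to 1301 and 1199 (-0.85). Another death-promoting gene, Bid, rose (1.60). In the NF-kappaB pathway 12 of 22 rose and 5 fell, or 9 fell after GC centring, with the inhibitor gene Nfkbie at 494 and 483 against 1079 and 1112 (1.16). The MAP kinase phosphatase genes Dusp7 (1.27) and Dusp1 (1.23) rose, and Dusp6 (-0.96) and Spred3 (-1.37) fell.

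Of 42 tested lineage and state factors 15 rose and 23 fell. Prdm1, which encodes the effector regulator BLIMP1, had 50.7 and 42.6 in the control and 10.8 and 8.82 in the knockout (-2.14). Runx2 (1331 and 1346 to 490.4 and 495, -1.44), Zbtb7b (-1.27), Klf6 (-1.12) and Tbx21 (-0.89), the T-bet gene, also fell. Id3, which favours memory precursors, had 449 and 411 against 966 and 1099.9 (1.26), and Eomes (0.60) and Tcf7 (0.34) rose. Foxp3, the regulatory T cell factor, rose from 4.06 and 5.07 to 43.3 and 49 (3.09) at counts too low for the naming rule. It is singled out here after its value was seen. Izumo1r, another gene of regulatory CD4 cells, went from 457 and 446 to 1125 and 1064, while Ikzf2 (-0.84), Ctla4 (-0.10) and Il2ra (-0.15) fell, and Cd4 itself had 4.06 and 0 in the control and 7.88 and 6.86 in the knockout.

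The stress-inducible chaperones were among the strongest falls. Hspa1a and Hspa1b, the inducible HSP70 genes, fell from 2613 and 2647 to 169 and 154 (Hspa1a, -4.02) and from 2573 and 2638 to 181 and 171 (Hspa1b, -3.88). They are near-identical copies on chromosome 17 that can share reads. The 250 bases before each RefSeq start (chr17:34972157-34972406 and chr17:34959239-34959488, minus strand, GRCm38.p6) are printed because they show how alike the copies are even outside the transcript, with capitals at the 3 positions that differ.
Hspa1a: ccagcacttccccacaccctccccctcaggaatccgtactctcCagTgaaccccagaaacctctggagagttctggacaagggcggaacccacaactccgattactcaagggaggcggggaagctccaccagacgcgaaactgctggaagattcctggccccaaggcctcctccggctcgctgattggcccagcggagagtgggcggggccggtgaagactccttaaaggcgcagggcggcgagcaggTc
Hspa1b: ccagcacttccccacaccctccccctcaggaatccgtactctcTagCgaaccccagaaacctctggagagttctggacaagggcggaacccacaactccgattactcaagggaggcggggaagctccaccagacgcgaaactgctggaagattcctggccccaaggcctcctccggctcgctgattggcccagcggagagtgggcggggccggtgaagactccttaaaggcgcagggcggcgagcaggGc
The remaining 247 bases are the same in both. Hspa1l, beside them, had 222 and 218 in the control and 17.7 and 47.1 in the knockout (-2.88), and its call was lost without a filter. Dnajb4, a co-chaperone gene, had 212 and 212 against 60.1 and 70.6 (-1.69). In the group as a whole 17 of 31 genes fell and 5 rose (median -0.221), and the constitutive partners Hsp90ab1 (0.02) and Hspa9 (0.07) did not pass.

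Metal and oxygen response genes were lower in most cases. Of 17 metallothionein and zinc transporter genes 10 fell and 2 rose (median -0.286). Metallothioneins, which buffer zinc, had Mt1 at 3243 and 3005 in the control and 1137 and 1265 in the knockout (-1.38) and Mt2 at 3191 and 2821 against 1005 and 1144 (-1.48), and Slc30a1, the zinc exporter gene induced with them, fell (-1.25). Of 30 hypoxia-response genes 21 fell and 5 rose (median -0.577), with 2 rising without knockout replicate 1 and 3 without knockout replicate 2. Egln3, a prolyl hydroxylase gene, had 1746 and 1667 against 416 and 413 (-2.04), and P4ha2 (-1.98), Bnip3 (-1.50), Pdk1 (-1.03) and Hif1a itself (-0.68) fell, while Arnt, the gene of its partner, rose (0.88). Antioxidant and iron genes were even, with 9 higher and 8 lower of 22 (median 0.005). With knockout replicate 1 left out 5 were higher and 4 lower, and with knockout replicate 2 left out 5 and 5. Srxn1, which repairs oxidised peroxiredoxins, went from 1299 and 1272 to 262 and 259.8 (-2.30), and the thioredoxin inhibitor gene Txnip fell (-0.86), while the glutathione synthesis gene Gclm rose (0.53). P53 targets had 16 lower and 7 higher of 29 (4 higher without knockout replicate 1 and 3 without knockout replicate 2), the falls led by Plk2 (2666 and 2736 to 751 and 759, -1.84), Cdkn1a (-1.73) and Perp (-1.43), while Trp53 rose (0.30).

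Glycolysis genes were even, with 11 higher and 12 lower of 29 (37.9% and 41.4%, against 32.9% and 28.2% of all tested genes). Slc2a6, a lysosomal hexose carrier gene, rose from 264 and 267 to 1007 and 1007 (1.92), and Slc2a3, a main glucose carrier gene of lymphocytes, fell from 4947 and 5269 to 1819 and 1826 (-1.49). The isoenzyme genes Eno3 (1.35) and Aldoc (-1.48) also moved apart, while Ldha, which makes lactate, rose slightly (0.11) and Hk2, of the first step, did not pass (0.05). Integrated stress response genes had 11 higher and 9 lower of 22 (5 lower without control replicate 2): Chac1, which degrades glutathione (1.10), Cebpb (0.93) and Atf4, the central factor (0.29), rose, and Nupr1 fell from 88.2 and 59.8 to 9.85 and 8.82 (-2.84).

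DNA replication had 34 of 38 genes higher and 0 lower (median 0.575), and the same 34 and 0 counts were obtained after GC centring. Pold2, a subunit of the lagging-strand polymerase, had 580.2 and 546 in the control and 1314 and 1334 in the knockout (1.23), and Orc2, of the origin recognition complex, 813 and 848 against 1561 and 1634 (0.94). Pcna, the clamp gene often taken as a proliferation mark, was one of the 4 that did not pass (0.01). Mitotic genes had 25 higher and 3 lower of 35 (1 lower without knockout replicate 2). Cdc25b, which triggers entry into mitosis, stood out, from 331 and 331 to 1879.9 and 1758 (2.45, SE 0.047), followed by Plk1 (1.38) and Bub1b (0.93), and Mki67, the Ki-67 gene, was slightly lower (-0.12). Genes of G1 had 14 higher and 6 lower of 29 (9 and 3 without knockout replicate 2), with 10 lower after GC centring. Ccne1 (0.97), E2f8 (1.01) and Cdk4 (0.70) rose, Myc did not pass (-0.02), and Cdkn1a, Cdkn2d (-0.45) and Mxd4 (-0.44) were among those that fell.

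Genes of precursor supply rose as well. Of 34 nucleotide metabolism genes 25 were higher and 6 lower (median 0.393). Cad, which starts pyrimidine synthesis, had 1171 and 1233 in the control and 2983 and 2872 in the knockout (1.28), Dhodh, of the same pathway, 129.8 and 124 against 276 and 288 (1.15), and Tyms, thymidylate synthase, 301 and 307 against 718 and 765 (1.28). The salvage and breakdown genes Upp1 (-2.50) and Samhd1 (-0.59) fell. Of 23 serine, glycine and folate genes 14 rose, including Mthfd1 (781 and 793 to 1683 and 1654, 1.08). The 4 that fell, Gldc, Aldh1l1, Cth (-1.81) and Aldh1l2 (-1.20), act in glycine breakdown, oxidation of formyl-folate or transsulfuration. Fewer fell when either control library was left out. Aldh1l1 reached 10 only in the control libraries and was then not tested. Aminoacyl-tRNA synthetases had 16 higher and 3 lower of 22, led by Mars (0.78). Among amino acid transporters 11 of 19 rose, or 7 without knockout replicate 1, with the leucine carrier Slc7a5 at 4597 and 4779 against 7436 and 7281 (0.65), whereas the glutamine carrier Slc1a5 fell (-0.80).

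Ribosome genes separated by compartment. Cytosolic ribosomal protein genes had 59 lower and 1 higher of 80 (median -0.267), mitochondrial ribosomal protein genes 51 higher (31 with DESeq2) and 5 lower of 82 (median 0.268), and factors of ribosome assembly 25 higher and 2 lower of 30 (median 0.31). Rpl34 had 6550.2 and 6027 in the control and 2609 and 3057 in the knockout (-1.15), with both knockout values far below the control values. Rps16 had 12554 and 11925 against 7972 and 9507 (-0.49), and Rpl39 2187 and 1931 against 1385 and 1505 (-0.51). The few calls against each group's direction were in part lost in the alternatives: Rpl8, the cytosolic gene that rose, was not called without control replicate 2 or either knockout library. The cytosolic genes have many processed pseudogenes that can share reads, and their count of falls was 33 without knockout replicate 1 and 39 without knockout replicate 2, against 68 after GC centring. Mrps12 went from 227 and 193 to 448 and 429 (1.06) and Mrps25 from 349.9 and 382 to 654 and 703 (0.89). Nuclear genes of the respiratory chain had 19 higher and 1 lower of 35, led by Sdha (0.66), while 8 of 15 mitochondrially encoded genes fell and 5 rose (3 without knockout replicate 1). Within that genome, the cytochrome oxidase genes mt-Co1, mt-Co2 (-0.67) and mt-Co3 (-0.42) fell and mt-Cytb (0.37) and mt-Nd4 (0.29) rose.

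The actin skeleton shifted as well, with 21 of 34 genes higher and 6 lower. Actb and Actg1 rose with the actin-binding genes Pfn1, Cfl1 (0.46) and Coro1a (0.49). The nuclear lamins parted, Lmna falling from 842 and 885 to 383 and 399 (-1.14) and Lmnb1 rising from 1508 and 1462 to 2749 and 2768 (0.89). Proteasome subunits had 24 higher and 3 lower of 37 (median 0.184). One of the 3 (1 without knockout replicate 1) was the immunoproteasome gene Psmb9 (-0.27). Its partner Psmb10 rose (0.36), and Psmb8 did not pass (0.04). MHC class I genes fell in 12 of 26 cases and rose in 6, with H2-Q7 at 8194 and 8166 against 4459 and 4514 (-0.87), H2-K1 (-0.36) and Tap1 (-0.74), in a family whose members can share reads. Lipid genes were divided: Scap, the escort of the sterol sensor, rose from 1198 and 1152 to 3321 and 3363 (1.51), and Scd1, a desaturase gene, fell from 524 and 507 to 191 and 182 (-1.46).

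**Figure D4:**
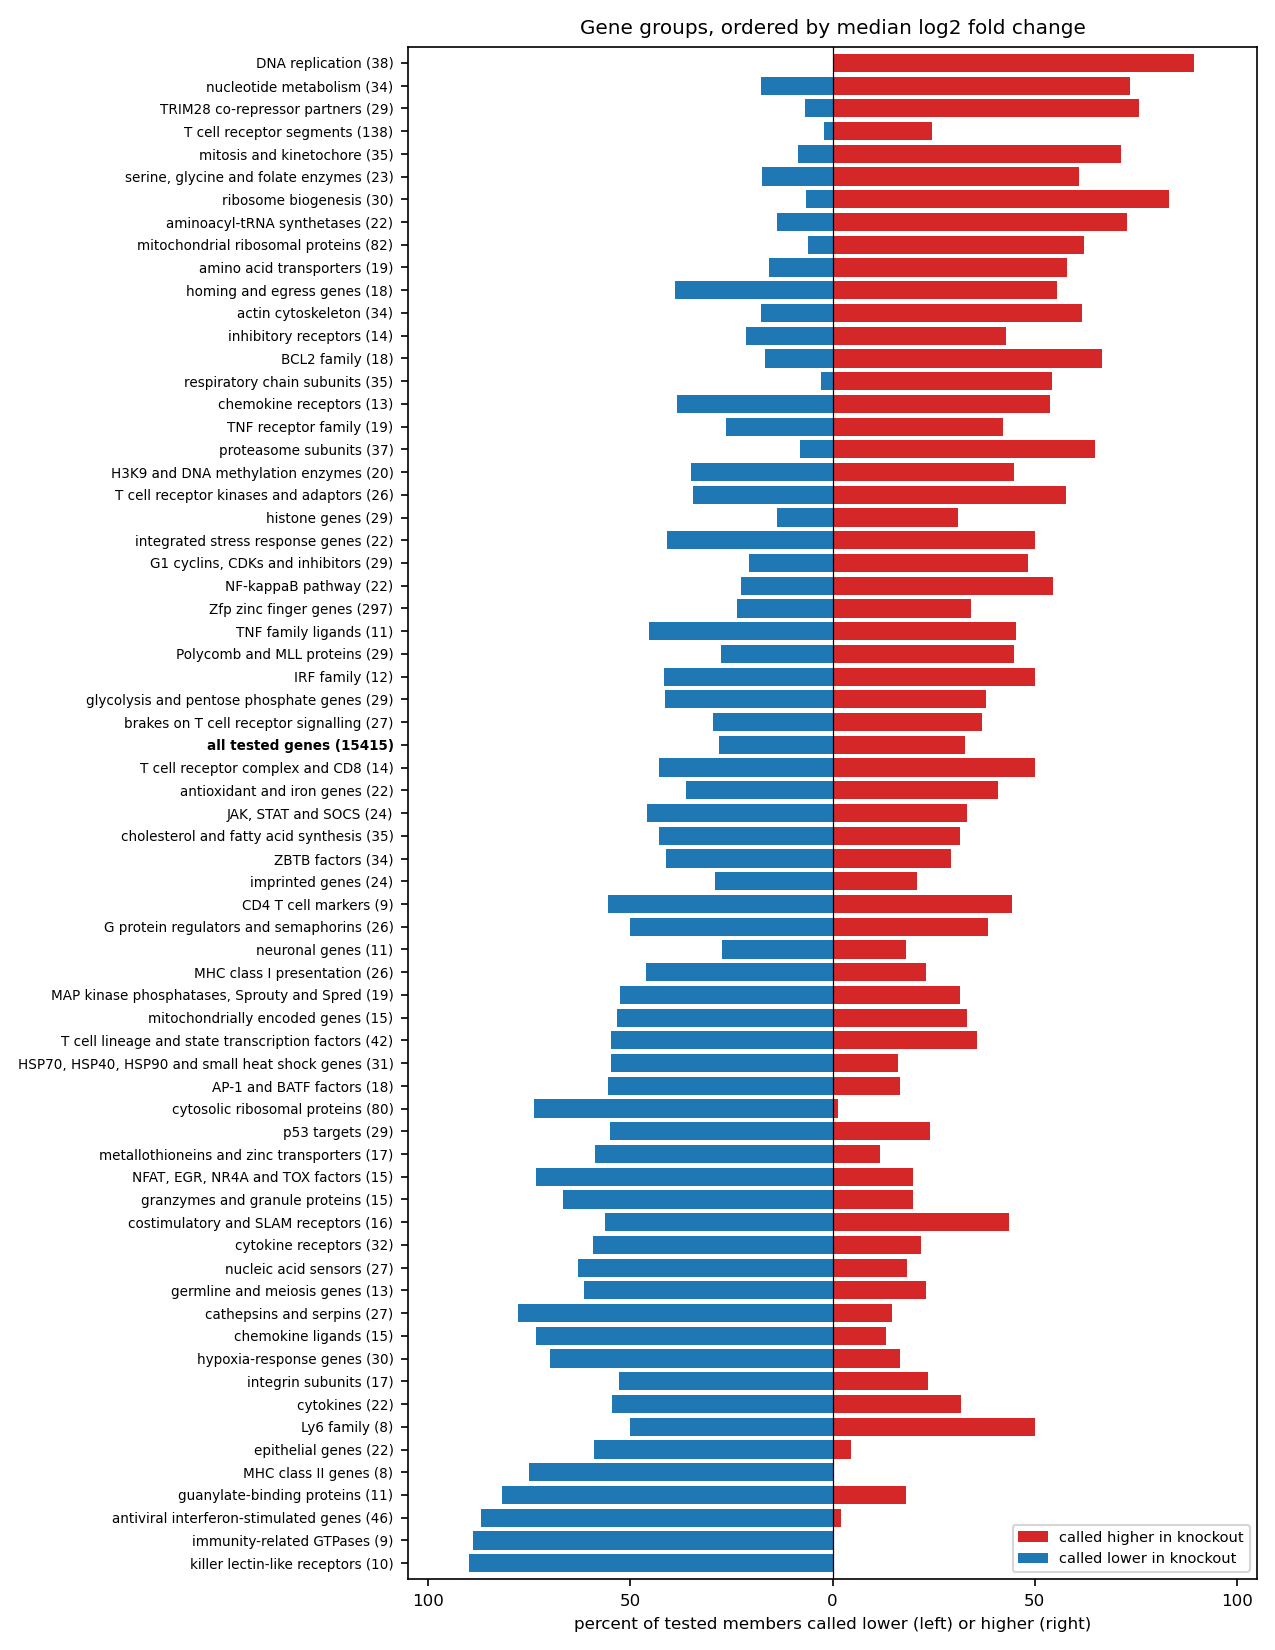
Percent of tested members called higher (red, right) or lower (blue, left) in the knockout for each gene group with at least 8 tested genes, ordered by the median log2 fold change, with the number tested in brackets. The bar for all tested genes has 32.9% higher and 28.2% lower; DNA replication is at the top (34 of 38 higher) and killer lectin-like receptors at the bottom (9 of 10 lower).

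TRIM28 is known for silencing genes of other tissues, and such gene groups were examined next. Repeats were not analysed here. Of 23 genes of the two-cell embryo 0 reached the expression filter and 17 were listed at 0 in all 4 libraries, with no value above 3.04. Of 47 germline and meiosis genes 13 were tested, 3 of them higher and 8 lower, and 25 were at 0 throughout. M1ap rose, as did Tdrd9, a piRNA helicase gene (listed at 0 in the control and 39.4 and 40.2 in the knockout), and Spo11, the gene of the meiotic break enzyme (5.07 and 0 to 21.7 and 25.5). Piwil2 went from 16.2 and 19.3 to 1.97 and 0, Rec8 from 10.1 and 15.2 to 0 and 2.94 and Brdt from 63.9 and 76 to 12.8 and 17.6. The germline genes thus moved both ways. With DESeq2 4 were lower. Tdrd9 and Spo11 reached 10 only in the knockout libraries, and Piwil2 and Rec8 only in the control libraries. These genes were not tested when either of those libraries was left out, so such fits say nothing about them.

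Epithelial genes were lower in most tested cases: 13 of 22 tested were lower and 1 higher, Epcam (0.69), with a median of -0.833. The desmosome genes Jup (108 and 92.2 to 23.6 and 21.6, -2.09), Dsp (168 and 216 to 66 and 64.7, -1.53) and Pkp2 (-1.19) and the junction gene Perp were among them. Perp is a p53 target as well. The count of lower epithelial genes was 8 without control replicate 2. Of 40 neuronal genes 11 were tested, and Cacna1a, a calcium channel gene (71 and 68.9 to 203 and 202), and Nefh, a neurofilament gene (269 and 279 to 718 and 698), rose, while 3 fell. Among 24 tested imprinted genes 5 rose and 7 fell, 20.8% and 29.2% against 32.9% and 28.2% of all tested genes, the falls led by Plagl1, a zinc finger gene (1247 and 1308 to 359 and 380.4, -1.79), and Mest (-1.88). Without control replicate 2, 3 imprinted genes rose and 3 fell, and when either knockout library was left out 2 rose. Of 297 Zfp zinc finger genes, the family whose proteins can recruit TRIM28, 102 rose and 70 fell, which is 34.3% and 23.6% of them against 32.9% and 28.2% of all tested genes. At least 2-fold, 22 rose and 6 fell (7.41% and 2.02%, against 4.03% and 6.42% of all tested genes). With DESeq2 the counts of higher and lower Zfp genes were 41 and 30, and without knockout replicate 1 and 2 they were 65 and 42, and 59 and 41, respectively.

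Of 847 long non-coding or unclassified genes, 57 rose and 99 fell at least 2-fold, against 621 and 989 of all 15415 tested genes. The long non-coding or unclassified genes named here had a mean count of at least 100 in the higher genotype. Snhg14, the host transcript of the imprinted small nucleolar RNA cluster on chromosome 7, had 18.3 and 18.2 in the control and 123 and 242 in the knockout (3.17), with knockout libraries that differed from each other by nearly a factor of 2. Arhgap27os3 had 73 and 69.9 against 366 and 340.2 (2.29) and A930002I21Rik 53.8 and 42.6 against 236 and 233 (2.27). The non-coding or unclassified genes that fell most were Gm44164, B930095G15Rik (281 and 279 to 55.1 and 37.3, -2.60), Gm16907 (-2.34), G530011O06Rik (-1.98) and Gm43430 (-1.44). Of these, Gm44164 and Gm43430 are unclassified. T cell receptor gene segments had 34 higher and 3 lower of 138, among them Trbv13-2 (362 and 331 to 539.6 and 514, 0.60) and, lower, Trbv15 (-0.64). Their higher count was 10 when either knockout library was left out and 2 with DESeq2.

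Neighbouring called genes shared their direction somewhat more often than called genes at large, a difference that was not tested. Of 5719 pairs of neighbouring tested genes that were both called, 3331 (58.2%) had the same direction, against 50.3% over all pairs of called genes. The longest run of called genes in one direction covered 16 genes that fell on chromosome 5 between 10865029 and 13043434 (GENCODE annotation on GRCm38). It includes Speer1 (35.5 and 33.5 to 5.91 and 5.88, -2.36), and 14 of its genes belong to a multi-copy block in which every control value lay between 25.4 and 42.6 and every knockout value between 3.92 and 10.8. Such copies share reads and do not count as separate genes. The remaining pair, Gm8925 (-0.30) and Gm10481 (-0.21), changed little.

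The next run held 12 genes that fell on chromosome 9 between 57750624 and 59146210. Cyp11a1, which starts steroid synthesis from cholesterol, had 11.2 and 14.2 in the control and was listed at 0 in the knockout, and the adjoining non-coding Gm17322 went from 42.6 and 36.5 to 2.95 and 7.84. Sema7a, a semaphorin gene, fell from 5889.9 and 5695 to 2502 and 2456 (-1.22), Arid3b from 467 and 495 to 226 and 209 (-1.14) and Islr2 from 32.5 and 24.3 to 1.97 and 3.92. Pml (-0.51), Nptn (-0.41) and Stoml1 (-0.43) fell less. The calls of Clk3 (-0.10) and Ubl7 (-0.23) and that of Neo1 (32.5 and 24.3 to 7.88 and 0) were lost in several alternatives. The third run held 11 genes that rose on chromosome 15 between 73577424 and 74959905. Arc, an activity-induced gene best known in neurons, rose from 1140.0 and 1206 to 3005 and 2961 (1.35), Them6 from 151 and 155 to 397 and 413 (1.40) and Jrk from 32.5 and 23.3 to 65 and 77.4 (1.33). Lynx1 (1.82), Ly6d, Ly6k (2.87) and Ly6e (0.55) close it, and just beyond them Ly6i, Ly6a, Ly6c1 and Ly6c2 fell.

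The clusters that follow were selected with their values already known. The 6 tested receptor genes from Il1r2 to Il18rap on chromosome 1 all fell: Il1rl2 went from 82.2 and 77 to 15.8 and 25.5 (-1.94), Il18r1, the IL-18 receptor gene, from 1346 and 1352 to 518 and 458 (-1.47) and Il18rap from 885 and 899 to 585 and 607 (-0.58), with Il1r1 and Il1r2 at low counts. A run of 10 genes on chromosome 7 that holds the Trim30 genes fell by 0.40 to 1.69 on the log2 scale. Around Yes1 on chromosome 5, Gm15614 (1.01 and 1.01 to 26.6 and 20.6) and Gm10461 (3.04 and 3.04 to 26.6 and 38.2), which overlap it on the other strand, rose with it, whereas the flanking Ppp1cb (0.43) and Pisd (0.21) rose little. By chromosome, the X had 124 higher and 214 lower of 611 tested genes (20.3% and 35.0%, against 32.9% and 28.2% of all tested genes). The falls on the X include a run of 9 Rps12 pseudogenes. Chromosome 3 had the highest share of falls (36.1%) and chromosome 15 the highest share of rises (40.5%).

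**Figure D5:**
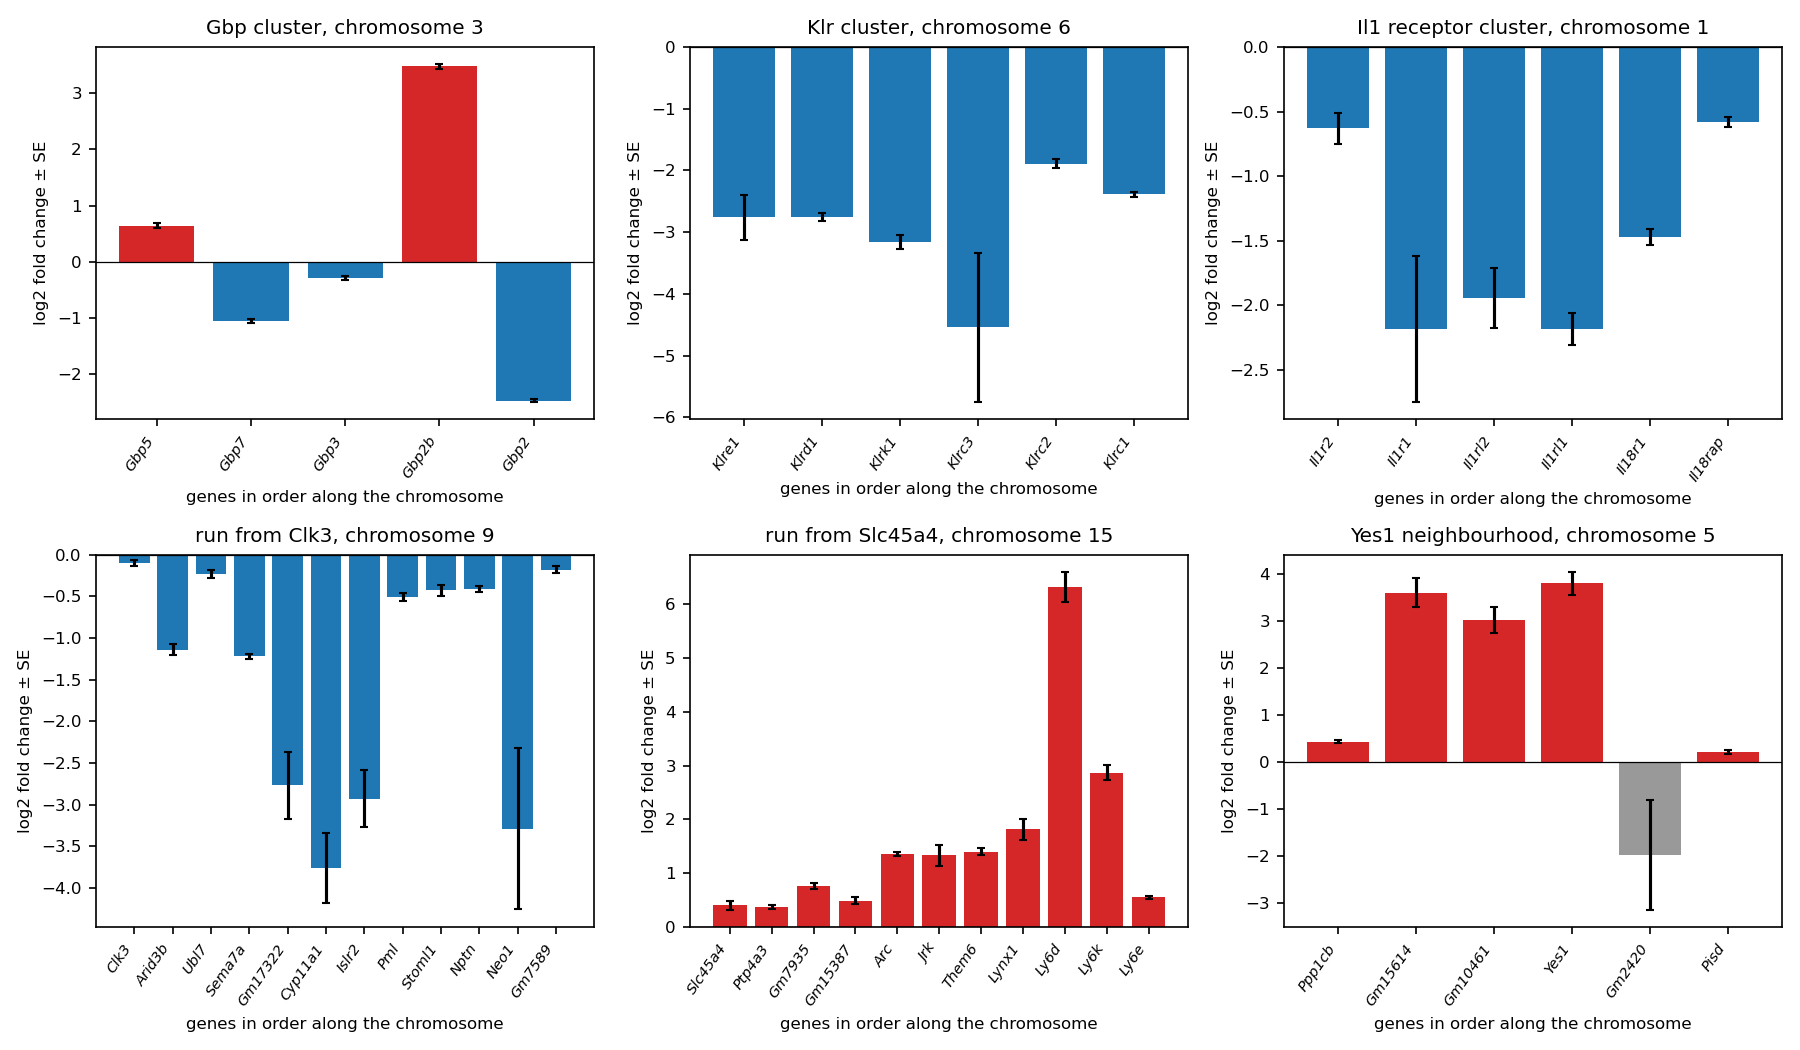
Log2 fold change with standard error for tested genes in order along 6 chromosome regions, red for called higher, blue for called lower and grey for not called. Within the guanylate-binding cluster Gbp2b (3.48) and Gbp2 (-2.47) point apart, the Klr and Il1 receptor clusters fall throughout, and fitted values of genes at 0 in one genotype (Ly6d, Cyp11a1) depend on the added 1.

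Markers of other cells that the cultures could hold moved in both directions, most of them at low counts. The 16 B cell markers summed to 1616 to 1649 in the control and 2230.0 to 2248 in the knockout, nearly all of it Ighm, and Ms4a1, Blk, Cr2 and Iglc2 were at 0 in all 4 libraries. Of these markers 5 were tested. Ighm (1565 and 1538 to 2142 and 2119, 0.46) and Ighd (21.3 and 15.2 to 76.8 and 77.4, 2.04) were higher. Cd79a (15.2 and 16.2 to 2.95 and 2.94) and Cd79b (18.3 and 20.3 to 5.91 and 4.9) were lower. The lower pair reached 10 only in the control libraries, so it was not tested when either of these was left out. MHC class II genes had 6 lower and 0 higher of 8, with H2-Ab1 at 617 and 622 against 184 and 209.8 (-1.65) and Cd74 not passing (0.07), and the class II activator Ciita was listed at 0 in all 4 libraries. The 10 class II genes summed to 2365 to 2382 in the control and 1665 to 1746 in the knockout. The 18 myeloid markers summed to 287 to 327.4 in the control and 159.5 to 172.5 in the knockout, with Adgre1, Elane, S100a8, S100a9, Siglech and Flt3 at 0 throughout. Of these 5 were tested, and Cd68 fell (222 and 208 to 125 and 127) while Lyz2 went from 8.11 and 45.6 to 4.92 and 11.8 without passing. The 15 markers of gamma-delta, NK and innate lymphocytes summed to 842.9 to 889.0 and 1164 to 1186, with Ncr1, Klra8, Zbtb16 and Tyrobp at 0. Of the 6 tested, 5 were higher and 1 lower (median 0.804). Trdc (24.3 and 22.3 to 68.9 and 73.5, 1.57) and Tcrg-C2 (1.44) were among the higher, and Il1rl1 (-2.18) was the lower. Markers of red cells, platelets and stroma summed to 432.1 to 674.1 and 679.5 to 730.3, with 1 higher and 1 lower of 6 tested. The part of such cells in the results was not tested.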

How the data were processed

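The authors deposited a normalised signal per gene: reads per gene scaled by each library's DESeq2 size factor. The submitters' processing notes name Trim Galore 0.4.4, HISAT2 2.2.1, StringTie 2.1.4, DESeq2 and mm10; the counter's strand setting is not given in the sources used here. Dividing by the value of 1 read gave whole reads for 100% of values (tolerance 0.001). Since the values are not raw counts, limma 3.58.1 (R 4.3.3; moderated test with a mean-variance trend) was run on log2(value + 1) for genes at 10 or more in at least 2 libraries, with Benjamini-Hochberg adjustment and calls at 0.05. The added 1 understates folds of low genes. The script was tested on simulated data. Alternatives were other scalings, pseudocounts (0.5, 5) and filters, no variance trend, edgeR 4.0.16 and DESeq2 1.42.0 on recovered reads, each library left out, a replicate block and, added after seeing the data, GC centring. Floors of 3 reads cover counting error only.

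The members and lists were chosen with earlier results of these data known. Genes were named by rule. The 10 with the greatest rise and fall came from called genes with a mean of at least 100 in the higher group. Only genes whose libraries did not overlap between genotypes could enter those 10. The rule also took those with the greatest gain and loss of reads, 6 genes at 0 in each group and 5 non-coding or unclassified genes each way. The longest runs and up to 4 members per list with the greatest change completed it. Further list members are named as examples after their values were seen. GENCODE vM21 annotation matched 14916 of 15415 genes by symbol, and transcript GC content was found for 14940 (96.9%). The authors' own fold changes and p-values were not used. Promoters and their build come from RefSeq, GRCm38.p6.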

Additional observations from a re-analysis of the deposited data

How the results depend on the processing

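The count of higher genes fell to 2846 and that of lower genes to 2660 with DESeq2, and leaving out 1 library at a time gave 3336 to 4704 higher and 2977 to 3544 lower genes. At least 2-fold falls numbered 496 at the stricter filter of 50 and 634 to 994 with 1 library left out. Another scaling moved the split between higher and lower genes from 5065 and 4344 to 4679 and 4700 (TMM) and 4265 and 5075 (upper quartile), and edgeR gave 4548 and 4571. The share of called genes that were higher thus ranged from 45.7% to 57.7% over the settings (53.8% as reported), and the median of all genes stood at -0.038 under upper-quartile scaling, against 0.031. Of 5010 tests of named genes under the alternatives 4921 kept direction and call, 89 lost the call and 0 reversed. Those genes were mostly picked for large changes in the same libraries. With DESeq2, 5495 of all 9409 called genes kept call and direction. Same-numbered libraries did not deviate together (correlation 0.01 over 15415 genes), so the numbers were not taken to pair them; with the replicate block 4881 genes were higher and 4197 lower. With GC centring 4442 were higher and 4643 lower of 14940. With 2 libraries a genotype, differences at counts under 50 had a median standard error of 0.223, and small changes there were not detectable.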
